A study of Drosophila melanogaster with 12 samples.

Results

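The comparison described here is that of Kc167 cells 10 h and 2 h after the start of an exposure to UPD. Its members were taken by their titles: the 2 arrays of UPD 10 h and the 2 arrays of UPD 2 h, 4 of the 12 arrays of the series. Kc167 is a Drosophila melanogaster cell line of embryonic origin. In both groups, cells in wells received UPD conditioned medium for 30 min, were then given Schneider's Drosophila medium without it, and were lysed at 10 h or at 2 h counted from the first contact with UPD. The Mock arm had Mock conditioned medium in place of UPD conditioned medium and the same 30 min and the same times, with 2 arrays at 10 h and 2 at 2 h. The labels call the 2 arrays of a group biological replicates, and both media also have 2 arrays at 4 h. Total RNA was hybridised to Affymetrix arrays, and values are the deposited log2 levels of probe sets. The labels give no number of passages or clones and do not name the source of the UPD.

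Unpaired (UPD) is a secreted cytokine-like ligand that binds the receptor Domeless on fly cells. The receptor-bound kinase Hopscotch then phosphorylates the transcription factor Stat92E, which enters the nucleus and activates its target genes. The pathway acts in blood cells, stem cell niches and embryonic patterning, and it is restrained by suppressors of cytokine signalling, by the phosphatase Ptp61F and by uptake of the receptor.

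Levels of most expressed transcripts were lower in UPD cells at 10 h than at 2 h. Of the 6731 probe sets with a mean level above 5 over the 12 arrays, called the brighter probe sets below, 6152 or 91.4% had a lower deposited mean at 10 h. The upper quartile of all levels was 6.11 and 6.63 on the 10 h arrays, against 7.39 and 7.42 on the 2 h arrays. The median of all levels was the same on all UPD arrays, 2.33, and on all Mock arrays, 2.38. Dim probe sets went the other way: those with a mean below 0 over the 4 UPD arrays had a median deposited difference of 1.02. The median difference of the 6551 probe sets with a mean above 5 over the 4 UPD arrays was -0.818 on the log2 scale, which is 56.7% of the 2 h level. In the Mock arm the same median was -0.40, over 6834 probe sets. Whether this shift lies in the cells, in the amount of RNA or in the scaling of the arrays was not tested, and in such bulk samples fewer cells of a type and less RNA per cell cannot be told apart. All differences below are therefore relative differences, 10 h minus 2 h on the log2 scale after the median of -0.818 was removed, unless the sentence says deposited.

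The 2 arrays of UPD 10 h were less alike than those of UPD 2 h. They correlated at 0.984 over the brighter probe sets, against 0.996 at 2 h, and the median SD of a probe set was 0.42 against 0.060. Most of this was a common shift of the brighter probe sets of an array. The median SD was 0.13 against 0.059 once each array was set to the median of its brighter probe sets, called its own median below. In the Mock arm the 2 arrays of 10 h correlated at 0.92, against 0.997 at 2 h. The 3′ minus 5′ difference of the eIF4a control probe sets, a sign of RNA quality, was 1.04 and 0.93 on the UPD 10 h arrays, against 0.58 and 0.66 on the UPD 2 h arrays. Those of the actin controls were 0.58 and 0.55 at 10 h, against 0.60 and 0.68 at 2 h. The part of RNA quality in the results was not tested.

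Of the 18769 probe sets tested with limma, 56 or 0.298% passed an adjusted p of 0.05 for UPD 10 h against 2 h. Gained, meaning higher at 10 h, were 31 (0.165%), and lost, meaning lower at 10 h, were 25 (0.133%). At an unadjusted p under 0.05 there were 3645 (19.4%). A transcript is called kept where the 95% interval of its relative difference lay within -1 and 1, a change of less than 2-fold, and it was not called. This held for 1236 probe sets (6.59%). With 1 array left out the 56 calls became 0 to 165: 0 in the absence of UPD 2 h replicate 2, 4 in that of its replicate 1, 14 in that of either Mock 2 h array, 20 or 25 in that of an array of 4 h, and 165 in that of either Mock 10 h array.

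The same test on the 6731 brighter probe sets alone called 1149 (17.1%). It gave 424 gained (6.3%), 725 lost (10.8%), 2765 kept (41.1%) and 2817 that were neither called nor kept. At an unadjusted p under 0.05 stood 2162 of them (32.1%). After the median was removed both 10 h arrays lay above both 2 h arrays in 1954 (29%) and below them in 2199 (32.7%). All 725 lost probe sets were also lower at 10 h as deposited, which follows from the removal of a negative median. All 424 gained ones were higher as deposited, because their smallest relative difference, 0.832, was larger than the size of the removed median. These signs are therefore no separate check of the calls. On the deposited scale itself only 5 brighter probe sets passed as higher at 10 h. With array weights per time only 186 brighter probe sets were called, 11 gained and 175 lost. The number of calls moved between 282 and 2273 when 1 of the 12 arrays was left out. Leaving out UPD 2 h replicate 1 gave 282, leaving out its replicate 2 gave 437, and leaving out UPD 10 h replicate 2 gave 462. Leaving out either array of Mock 10 h gave 2273, through the estimate of the spread that all groups share.

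The split between gained and lost depended on the scaling. Of the 56 calls, 55.4% were gained, against 28.9% of 471 calls after quantile normalization and 10.6% of 1776 calls on the deposited scale. Among the brighter probe sets 36.9% of the 1149 calls were gained, against 50.7% of 2572 after quantile normalization, 57.7% of 2770 with each array set to its own median and 0.13% of 3832 as deposited. The median of all 18769 probe sets lay at 0.51 on the relative scale, at -0.31 as deposited and at 0.02 after quantile normalization.

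**Figure D1:**
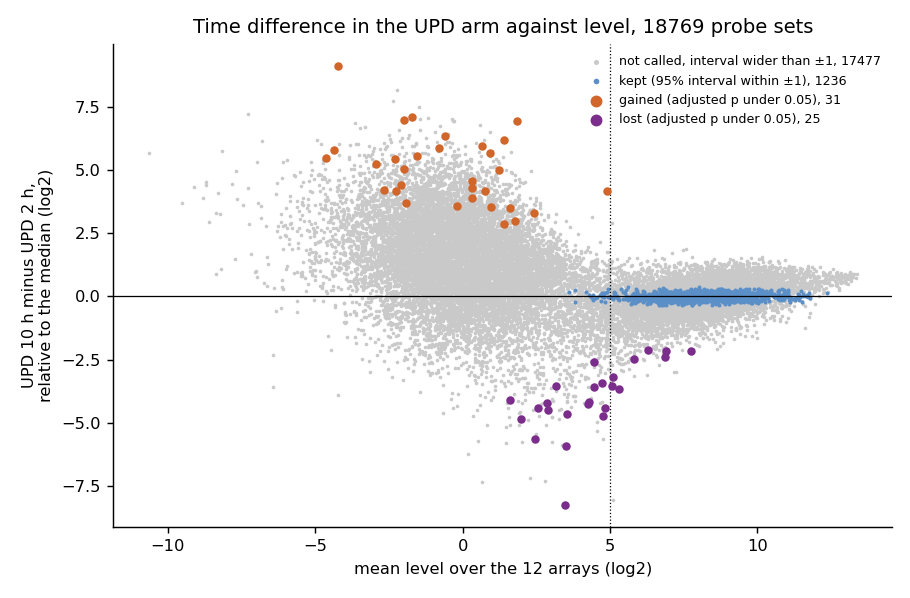
Each point is 1 of 18769 probe sets: its mean level over the 12 arrays in log2 (x axis) and its relative difference, UPD 10 h minus UPD 2 h, in log2 (y axis), with the dotted line at a mean level of 5. The 31 gained probe sets lie left of the line, 8 of the 25 lost ones lie right of it, and the 1236 kept ones lie mostly right of it.

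The gained calls over all 18769 probe sets came from dim probe sets. None of the 31 had a mean above 5, their means ran from -4.62 to 4.91, and 27 of them had a mean below 0 at 2 h. Their median level was 1.45 at UPD 10 h, against -2.90 at UPD 2 h, and it was 0.40 at Mock 10 h, against -1.54 at Mock 2 h. Only 18 of them have a single gene, and 3 are named here, chosen after their values were seen. CG12609 had 3.39 and 3.02 at 10 h, against -2.72 and -3.12 at 2 h. zen2, a homeobox gene of the Hox complex, had 3.08 and 3.05 at 10 h, against -2.08 and -2.54 at 2 h, and Drgx, another homeobox gene, had 2.49 and 0.49 at 10 h, against -4.96 and -4.40 at 2 h. For all 3 genes both 10 h arrays lay above both 2 h arrays. The brightest gained probe set has no gene listed, and its mean was 7.79 at 10 h, against 4.44 at 2 h, with 5.39 at 4 h and 3.52 at Mock 10 h.

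The lost calls came from transcripts of higher level than the gained ones. Of the 25, 8 had a mean above 5 and 21 have a single gene, and their median level was 0.39 at UPD 10 h, against 5.40 at UPD 2 h and 5.16 at UPD 4 h. In Mock cells their median level was 4.63 at 10 h, against 5.72 at 2 h. Their genes were long: the median genomic length was 14770 bases over 19 genes, against 1946 bases over 18 gained genes. In the following, p is limma's, adjusted by the Benjamini-Hochberg method, first over all 18769 probe sets and then over the 6731 brighter ones. The ± is limma's standard error in the fit over all probe sets, so it does not belong to the p over the brighter ones.

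Orcokinin, which encodes a neuropeptide precursor, had levels of 2.02 and 1.58 at 10 h, against 6.30 and 6.05 at 2 h. Both 10 h arrays lay far below both 2 h arrays. Its relative difference was -3.55 ± 0.34 (adjusted p = 0.0218 and 7.87e-09). It had 4.38 and 4.88 on the Mock 10 h arrays, against 6.24 and 6.40 on the Mock 2 h arrays, a relative difference of -1.30. form3, a formin that nucleates actin filaments, had 1.87 and 2.26 at 10 h, against 6.15 and 6.03 at 2 h, and it fell by 3.21 relative to the median (adjusted p = 0.0303 and 1.24e-07). Its second probe set, with a mean level of 2.50, gave -1.32 (adjusted p = 0.31 over all probe sets). The 10 h levels of both Orcokinin and form3 lay below the array median of 2.33, where values have no floor.

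The nuclear protein gene east had 4.34 and 4.49 at 10 h, against 7.69 and 7.57 at 2 h, and its relative difference was -2.40 ± 0.31 (adjusted p = 0.0356 and 4.84e-06). egh, which encodes a mannosyltransferase of glycosphingolipid synthesis, had 5.87 and 5.77 at 10 h, against 8.89 and 8.74 at 2 h, a relative difference of -2.18 ± 0.31 (adjusted p = 0.0484 and 1.5e-05). The other probe set of egh, at a mean of 7.05, gave only -0.33 (adjusted p = 0.65 over all probe sets), so the 2 probe sets of this gene disagree. CG42671 had 4.40 and 4.78 at 10 h, against 7.63 and 7.54 at 2 h (relative difference -2.18 ± 0.28, adjusted p = 0.0356 and 1.15e-05). tay had 3.71 and 4.07 at 10 h, against 6.84 and 6.84 at 2 h (relative difference -2.13 ± 0.30, adjusted p = 0.0484 and 1.77e-05). No overlap of the 10 h and 2 h arrays was a condition of choice for these 6 genes. Over the 5628 genes with a mean above 5, both 10 h arrays lay below both 2 h arrays in 32.6%. These 6 kept their call over the brighter probe sets in 22 of 22 alternatives, and over all probe sets in 7 to 17 of 22.

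Among the next smallest p-values, 4 lower genes missed the threshold over all probe sets and passed it over the brighter ones. HERC2, of a family of large ubiquitin ligases, had -0.05 and -4.12 at 10 h, against 6.61 and 6.95 at 2 h. The 2 arrays of 10 h differed by 4.08 in a range without a floor, so the size of its relative difference, -8.05 ± 1.18, is loosely set (adjusted p = 0.0502 and 7.87e-09). HERC2 had 7.24 and 5.66 on the Mock 10 h arrays, against 6.90 and 6.79 on the Mock 2 h arrays. Mgat2, an enzyme that extends N-glycans in the Golgi, had 2.69 and 2.02 at 10 h, against 5.65 and 5.78 at 2 h (-2.55 ± 0.38, adjusted p = 0.0502 and 4.84e-06). Sptz had a relative difference of -1.95 ± 0.30 and aru, which encodes an Eps8-like adaptor, one of -2.07 ± 0.32, with adjusted p of 3.91e-05 and 2.74e-05 over the brighter probe sets. No overlap of the 10 h and 2 h arrays was a condition of choice for these 4 genes too.

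**Figure D2:**
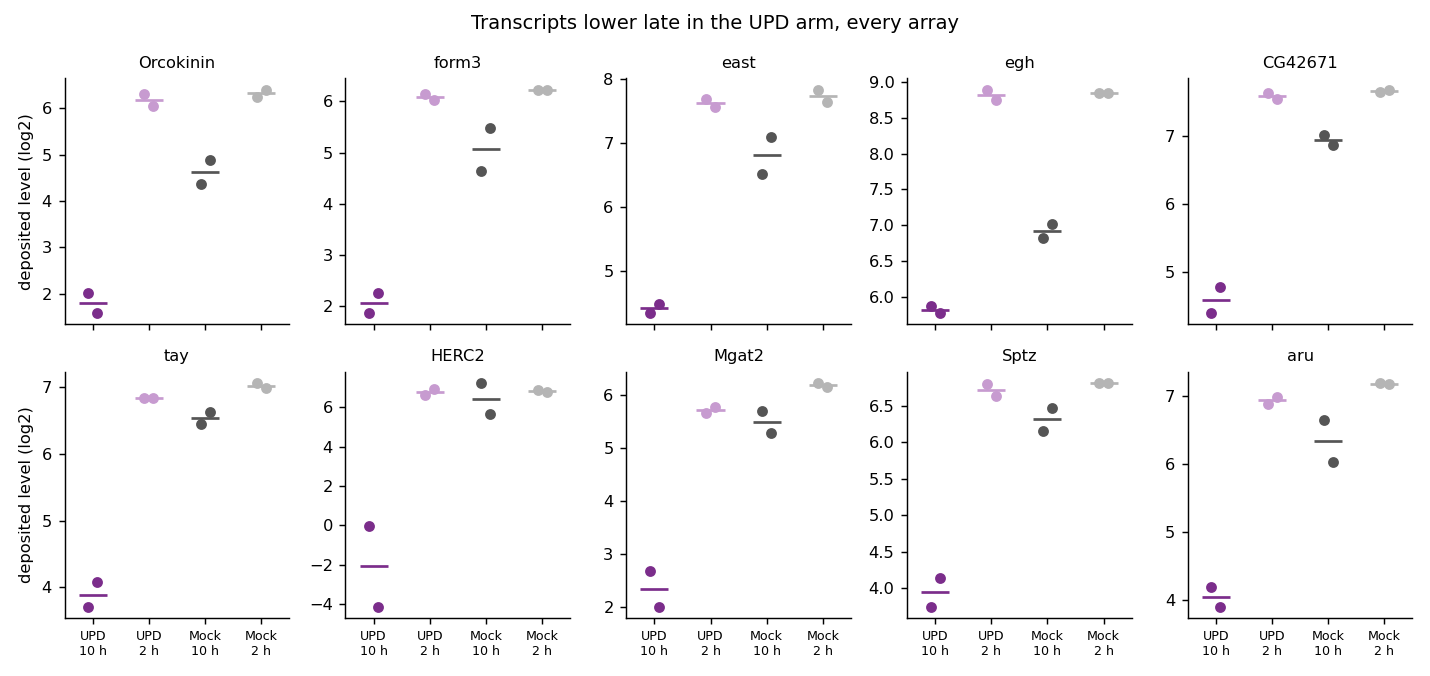
Deposited log2 level (y axis) of 10 transcripts on every array of UPD 10 h, UPD 2 h, Mock 10 h and Mock 2 h (x axis); points are arrays and bars are means of 2 arrays. Orcokinin lies at 2.02 and 1.58 at UPD 10 h and at 6.30 and 6.05 at UPD 2 h, and in all 10 panels the UPD 10 h points are the lowest. That they lie below the UPD 2 h points was a condition of the choice.

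Other lost transcripts were dim at 10 h, and those named here were chosen after their values were seen. Rfx, a transcription factor for ciliary genes, averaged -2.80 at 10 h and 3.67 at 2 h (adjusted p = 0.0223). rempA, a component of intraflagellar transport, averaged 0.09 at 10 h and 5.16 at 2 h (adjusted p = 0.0442). Dys, the fly dystrophin, averaged 0.33 at 10 h and 5.86 at 2 h (adjusted p = 0.0484). xmas-1 averaged -2.02 at 10 h and 4.70 at 2 h (adjusted p = 0.0247). The 10 h means of these 4 genes lay below the median of all probe sets on the UPD arrays, 2.33, in a range without a floor, and the sizes of their differences are not given. All 8 measured members of a list of ciliary and RFX genes had means of 5 or less, and in 4 of them both 10 h arrays lay above both 2 h arrays and in 2 below, after the median was removed. Over all 18769 probe sets these shares were 36.9% and 17.5%, so that the members' counts are near them.

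No brighter gene passed the threshold as gained over all 18769 probe sets. Given are the 10 gained genes with the smallest p among those whose 10 h and 2 h arrays did not overlap. CG4793, of the trypsin-like serine protease family, had 7.91 and 8.38 at 10 h, against 7.11 and 7.17 at 2 h. Both 10 h arrays lay above both 2 h arrays also as deposited. Its relative difference was 1.82 ± 0.31 (adjusted p = 0.054 and 0.000101), and it passed over the brighter probe sets in 22 of 22 alternatives. CG6357 had 8.73 and 8.74 at 10 h, against 7.60 and 7.87 at 2 h, a relative difference of 1.82 ± 0.35 (adjusted p = 0.0681 and 0.000156). CG13559 had 8.87 and 9.82 at 10 h, against 8.27 and 8.32 at 2 h, a relative difference of 1.87 ± 0.44 (adjusted p = 0.1 and 0.000332).

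CG34330 had 7.27 and 7.83 at 10 h, against 6.74 and 6.59 at 2 h (1.70 ± 0.34, adjusted p = 0.000319 over the brighter probe sets). Prx6c, a peroxiredoxin that removes peroxides, had 10.04 and 10.45 at 10 h, against 9.61 and 9.56 at 2 h (1.48 ± 0.33, adjusted p = 0.0012). Nop10, a protein of the box H/ACA particles that modify ribosomal RNA, had 10.69 and 11.22 at 10 h, against 10.32 and 10.54 at 2 h (1.35 ± 0.35, adjusted p = 0.00317), and only 0.11 after removal of the gene length trend described below. The other 4, CG11825, CG33307, CG44014 and CG11279, had relative differences of 1.49, 1.49, 1.50 and 1.52, with adjusted p of 0.00135, 0.0014, 0.0014 and 0.00153 over the brighter probe sets. On the deposited scale 5 brighter probe sets passed as higher at 10 h: those of CG4793, CG13559, CG6357, CG34330 and CG33459.

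The 5 kept transcripts with the highest level show what stayed at the median. CCT2, a subunit of the cytosolic chaperonin, had 10.82 and 11.48 at 10 h, against 11.97 and 12.08 at 2 h, a relative difference of -0.06 ± 0.40. Its deposited level was lower at 10 h on both arrays, as was the median transcript. RPA1 (binding of single-stranded DNA), Mpcp2 (mitochondrial phosphate carrier), blw (alpha subunit of ATP synthase) and Vha26 (vacuolar ATPase) had relative differences of 0.14, 0.06, -0.03 and 0.05. After quantile normalization these 5 had differences of -0.55, -0.37, -0.43, -0.51 and -0.45, so that bright kept transcripts lay below 0 on that scale.

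Among the components of the JAK/STAT pathway, 5 of 11 brighter genes were lost late, and Stat92E itself was kept. Of 14 measured genes 11 had a mean above 5, of which 0 were gained, 5 were lost and 3 were kept, with a median relative difference of -0.56. Over all 5628 genes with a mean above 5, 6.56% were gained, 10.4% were lost, 41.8% were kept, and the median was -0.01. In 9 of the 11 both 10 h arrays lay below both 2 h arrays, against 32.6% of the 5628 genes. After removal of the gene length trend the median was -0.28 and 1 of the 11 was lost. With 1 array left out, 1 to 5 were lost.

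The ligand genes were dim: upd1 had -3.45 and -0.86 at 10 h, against -2.71 and -2.93 at 2 h, and upd2 had 0.55 and -3.25 at 10 h, against -2.0 and -0.58 at 2 h. The receptor gene dome had 6.52 and 6.93 at 10 h, against 8.62 and 8.59 at 2 h, and both 10 h arrays lay below both 2 h arrays. Its relative difference was -1.07 ± 0.31 (adjusted p = 0.152 over all and 0.0135 over the brighter probe sets), on Mock arrays 0.03, and the difference between the media was -1.09 (adjusted p = 0.199). et, which encodes the shorter receptor relative eye transformer (latran), a negative regulator, had 2.93 and 3.23 at 10 h, against 5.37 and 5.24 at 2 h, a relative difference of -1.40 ± 0.37 at a mean of 4.77, just under 5 (adjusted p = 0.127).

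Stat92E, the transcription factor of the pathway, had 9.11 and 9.69 at 10 h, against 10.13 and 10.12 at 2 h, and its relative difference was 0.10 ± 0.36, which was within the kept limits. Among the negative regulators, Socs16D, a suppressor of cytokine signalling, had 4.20 and 2.63 at 10 h, against 6.59 and 6.45 at 2 h (-2.29 ± 0.49, adjusted p = 6.92e-05 over the brighter probe sets). The time difference of Socs16D also differed from that in Mock cells, by -2.07 ± 0.70 (adjusted p = 0.0275 over the brighter and 0.521 over all probe sets), and this call passed in 14 of 22 alternatives. Socs44A (-0.47) and the phosphatase gene Ptp61F (-0.53) were neither called nor kept. Su(var)2-10, the fly PIAS protein, was kept at -0.05. Stam, an adaptor of receptor uptake, was kept at -0.33, and ken, a repressor of some Stat92E targets, stood at -0.56 without a call.

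The lost members also held BRWD3, a bromodomain protein, at -1.0, the cofactor gene bon at -0.88 and the S-phase cyclin gene CycE at -1.10. Their adjusted p over the brighter probe sets were 0.0192, 0.0381 and 0.0154. CycE had 6.30 and 6.31 at 10 h, against 8.08 and 8.36 at 2 h. As for all lists here, no test of the list as a whole was made.

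Of genes reported as JAK/STAT targets in other cells or tissues, 16 were measured and 10 had a mean above 5. Of these 10, 1 was gained (CG13559), 4 were lost and 0 were kept, where 6.56%, 10.4% and 41.8% of the 5628 genes were, and 0 of the 16 passed over all probe sets. The median relative difference was -0.70, and -0.28 after removal of the gene length trend, where 0 were lost. The lost ones were dome, Tep4, a thioester protein of immunity (-1.04, adjusted p = 0.0166), wdp, a leucine-rich repeat protein that restrains the receptor (-0.97, 0.0266), and lama (-1.03, 0.0147). Tep4 had 7.19 and 7.88 at 10 h, against 9.51 and 9.29 at 2 h, and lama had 5.91 and 6.13 at 10 h, against 7.89 and 7.84 at 2 h. For both genes the 10 h arrays lay below the 2 h arrays.

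The transcription factor genes chinmo and zfh1 stood at -0.54 and -0.61 without a call in UPD cells, and another probe set of chinmo, with a mean of 5.34, gave -1.50. In Mock cells chinmo and zfh1 had relative differences of -1.84 and -1.37 (adjusted p = 0.00899 and 0.0387). The antiviral-response gene vir-1 stood at -0.79 and CycD, a growth-linked cyclin, at -0.48. TotC, crb, eve, Diedel, mirr and Ama had means below 5 and no call. Ama, which encodes a cell-surface immunoglobulin protein, had 1.57 and 2.19 at 10 h, against -2.46 and 0.11 at 2 h (adjusted p = 0.111).

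The transcripts that had stood above Mock at 2 or 4 h after UPD were followed to 10 h. These 15 genes had been picked from these same arrays, so their height at 2 h is not independent, and their counts support nothing about UPD. Of the 14 with a mean above 5, 6 were gained late, 1 was lost (dome) and 4 were kept, where 6.56%, 10.4% and 41.8% of the 5628 genes were. The median relative difference of the 14 was 0.71. The gained 6 were CG13559, CG4793, CG6357, CG33459, Sid and Spn31A. Between 3 and 8 of the 14 were gained with 1 array left out.

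CG13559 had 8.27 and 8.32 at 2 h, then 8.25 and 8.33 at 4 h, then 8.87 and 9.82 at 10 h after UPD, and 6.80 and 6.67, 6.43 and 6.31 and 6.91 and 5.95 at the same times after Mock. CG4793 had 7.11 and 7.17 at 2 h, then 7.42 and 7.30 at 4 h, then 7.91 and 8.38 at 10 h after UPD, and 6.30 and 6.55, 5.55 and 5.71 and 4.46 and 4.12 after Mock. At 10 h both genes stood higher in UPD cells than on any other array of the series. CG6357 had 7.60 and 7.87 at 2 h, then 7.86 and 7.52 at 4 h, then 8.73 and 8.74 at 10 h after UPD, and 7.58 and 7.65, 6.69 and 7.41 and 6.09 and 5.78 after Mock.

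CG33459, of the same protease family, had 5.65 and 5.79 at 2 h, then 6.32 and 6.12 at 4 h, then 7.60 and 8.04 at 10 h after UPD. After Mock it had 4.98 and 4.84, 4.11 and 4.37 and 4.53 and -1.58. The 2 arrays of Mock 10 h differed widely for it, and its relative difference in UPD cells has a wide error, 2.92 ± 1.60, in the shared fit. CG33459 passed the limit of 5 for the brighter probe sets only through the UPD arrays. Its mean was 5.07, and every Mock array lay below 5. The call over the brighter probe sets (adjusted p = 0.023) passed in 15 of 22 alternatives. Sid, which encodes a stress-induced DNase, had 5.70 and 5.71 at 2 h, then 5.41 and 5.36 at 4 h, then 5.97 and 6.43 at 10 h after UPD and 5.52 and 5.10, 4.65 and 5.09 and 3.29 and 2.31 after Mock. Its relative difference was 1.31 ± 0.41 (adjusted p = 0.00668). The mean of Sid over the 12 arrays, 5.04, was also just above the limit of 5, with its highest values on UPD 10 h arrays. Like CG33459 it passed this limit only through the UPD arrays. Every UPD array lay above 5, and the mean of its Mock arrays lay below 5, with 5.31 at Mock 2 h and 2.80 at Mock 10 h. Spn31A, a serpin, had 6.97 and 7.16 at 2 h, then 7.14 and 7.19 at 4 h, then 6.93 and 7.49 at 10 h after UPD, where the deposited arrays of 10 h and 2 h overlap, and its relative difference of 0.97 ± 0.34 passed at 0.0261.

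Galphaf, a G protein alpha subunit, had 5.47 and 5.68 at 2 h, then 6.50 and 6.40 at 4 h, then 6.07 and 6.95 at 10 h after UPD, a relative difference of 1.75 ± 0.38 that missed the threshold (adjusted p = 0.0852). Its mean of 4.98 lay just under the limit of 5, so it was outside the test on brighter probe sets. The kept 4 were CG4822 (0.10), CG17660 (0.12), CG1628 (-0.16) and drongo (-0.36). Hsp27, a small heat shock protein, had 8.38 and 8.80 at 10 h, against 8.64 and 8.72 at 2 h, a relative difference of 0.73 ± 0.29 without a call (adjusted p = 0.0755). CG4080 and Nepl3 were not called either, at -0.62 and 0.70.

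**Figure D3:**
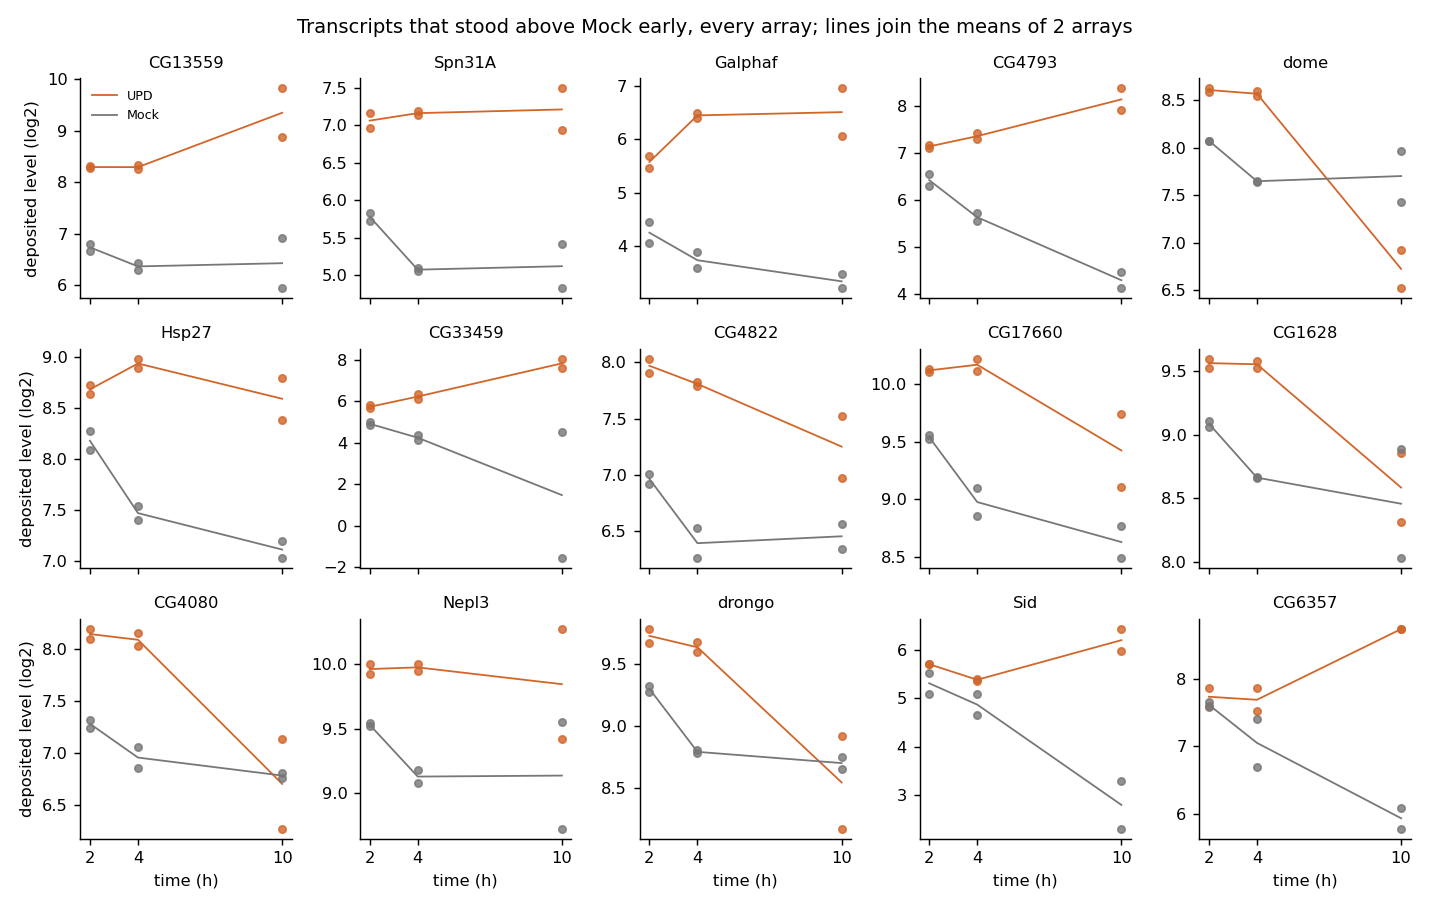
Deposited log2 level (y axis) against time in h (x axis) for the 15 genes that stood above Mock early, with every array as a point and lines through the means of 2 arrays, UPD in orange and Mock in grey. CG4793 stood at 7.91 and 8.38 at UPD 10 h, above its 2 h and 4 h levels, whereas dome fell to 6.52 and 6.93 at UPD 10 h, below its Mock arrays.

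Of 13 measured markers of blood cells 7 had a mean above 5, of which 5 were lost, 0 were gained and 1 was kept, where 10.4%, 6.56% and 41.8% of the 5628 genes were, with a median of -0.97. The lost ones were the matrix genes Ppn and Col4a1, the transcription factor genes srp (-0.87) and ush (-0.97), and Hml. The secreted hemocyte protein gene Hml (-1.57) was named after its values were seen. The GATA factor gene srp had 7.80 and 8.03 at 10 h, against 9.60 and 9.61 at 2 h. After removal of the gene length trend the median was -0.32 and 1 of the 7 was lost, and 2 to 5 were lost with 1 array left out.

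Markers of the fat body and of crystal cells were dim, while most of those of lamellocytes and of the germline were not. None of 7 measured fat body markers and none of 4 crystal cell markers reached a mean of 5. The log2 of the summed linear levels of the fat body markers was 3.81 to 4.51 at UPD 10 h, against 3.66 to 3.84 at UPD 2 h, and that of the blood cell markers was 9.58 to 10.1, against 11.7 to 11.9. That sum was 9.49 to 10.2 at UPD 10 h for the lamellocyte markers, against 10.7 at UPD 2 h. For the germline markers it was 9.22 to 9.78, against 10.1. Of 8 lamellocyte markers, 6 had a mean above 5 with 0 calls and a median of -0.51. The line also carried transcripts named for other tissues: the germline genes piwi, bam and aub were kept at 0.28, 0.22 and 0.21, and the neuronal gene elav was lost, with 4.49 and 4.55 at 10 h, against 7.25 and 7.35 at 2 h (-1.97 ± 0.36, adjusted p = 7.21e-05). In Mock cells elav had a relative difference of -1.46. Of 6 measured neuron and muscle markers only elav had a mean above 5, and the median relative difference of the 6 was 0.02. After the median was removed, both 10 h arrays lay above both 2 h arrays in 2 of the 6 and below in 2. Over all 18769 probe sets these shares were 36.9% and 17.5%.

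Of 10 basement membrane and matrix genes with a mean above 5, 4 were lost and 2 were gained, where 10.4% and 6.56% of the 5628 genes were. Their median was -0.82. vkg and Col4a1, the chains of collagen IV, are neighbours in the genome that share a promoter region. vkg had 7.41 and 7.59 at 10 h, against 9.67 and 9.58 at 2 h (-1.31 ± 0.28, adjusted p = 0.00218), and Col4a1 had 7.55 and 8.19 at 10 h, against 9.99 and 10.03 at 2 h (-1.32 ± 0.36, adjusted p = 0.00408). In Mock cells their relative differences were 0.46 and 0.48, and neither passed there. The proteoglycan-like papilin gene Ppn had 4.41 and 4.01 at 10 h, against 6.74 and 6.54 at 2 h (-1.61 ± 0.32, adjusted p = 0.000454).

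The time differences of vkg, Col4a1 and Ppn were lower in UPD than in Mock cells by a test of the difference itself. It was -1.78 ± 0.39 for vkg, -1.80 ± 0.50 for Col4a1 and -1.74 ± 0.45 for Ppn, with adjusted p of 0.0184, 0.0271 and 0.0271 over the brighter probe sets. These calls passed in 14, 13 and 13 of 22 alternatives, and over all probe sets the adjusted p were 0.365, 0.466 and 0.43. Tig, an integrin ligand, was lost in UPD cells (-1.46), but its difference between the media, -1.0, did not pass (adjusted p = 0.251). The gained 2, named after their values were seen, were trol, the fly perlecan (0.89, adjusted p = 0.0433), and SPARC, a collagen-binding protein (0.90, 0.0467). After removal of the gene length trend the median of the list was -0.28, and 2 were lost and 1 gained.

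Of 9 integrin and linker genes with a mean above 5, 2 were lost and 4 were kept, where 10.4% and 41.8% of the 5628 genes were, so that the kept share is near that of all genes. rhea, the fly talin, had 6.61 and 7.31 at 10 h, against 8.97 and 9.0 at 2 h (-1.21 ± 0.32, adjusted p = 0.00629), and the kinase gene Fak had 4.11 and 4.67 at 10 h, against 6.56 and 6.49 at 2 h (-1.31 ± 0.51, adjusted p = 0.0137). For both genes all 10 h arrays lay below all 2 h arrays. Tango1, which exports collagen from the endoplasmic reticulum, was the only lost gene of 6 for collagen processing and secretion (-1.06, adjusted p = 0.0264), and 3 were kept. After removal of the gene length trend 0 of the integrin and linker genes and 0 of the collagen processing genes were lost.

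Among genes of the translation machinery, the calls lay mostly in those of the mitochondrial ribosome, although those of the cytosolic ribosome had a like median. Of 36 mitochondrial ribosomal protein genes with a mean above 5, 13 were gained and 0 were lost, with a median of 0.83, where 6.56% and 10.4% of the 5628 genes were. In 34 of them both 10 h arrays lay above both 2 h arrays after the median was removed, against 29.1% of the 5628 genes. As deposited their median difference was 0.02, so their level at 10 h was close to that at 2 h while the median transcript was lower. mRpS21 had 10.61 and 11.25 at 10 h, against 10.28 and 10.49 at 2 h (1.36 ± 0.42, adjusted p = 0.00549), and mRpL10 had 9.39 and 10.29 at 10 h, against 9.27 and 9.44 at 2 h (1.31 ± 0.43, adjusted p = 0.00848). mRpL23 and mRpS7 stood at 1.24 and 1.05.

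This group was sensitive to single arrays and to gene length. With 1 array left out 0 to 27 of the 36 were gained, after quantile normalization 26, and after removal of the gene length trend 1, with a median of 0.19. With array weights per time 0 of the 36 were gained. In Mock cells their median was 0.35 with 0 calls. Of 22 cytosolic ribosomal protein genes 2 were gained, RpL27 (0.97) and RpS21 (1.16), with a median of 0.80, and of 0.04 after quantile normalization, and 0 were gained after removal of the gene length trend. That count is near the 6.56% of the 5628 genes. In 21 of the 22 both 10 h arrays lay above both 2 h arrays after the median was removed, against 29.1% of the 5628 genes. The list of cytosolic ribosomal protein genes held 63, of which only these 22 were measured. All probe sets with a mean above 10 had a median of 0.52. Of 26 genes of the respiratory chain and ATP synthase 5 were gained and 0 lost, where 6.56% and 10.4% of the 5628 genes were. Their median was 0.70, and 0.29 without the gene length trend. In 22 of the 26 both 10 h arrays lay above both 2 h arrays after the median was removed, against 29.1% of the 5628 genes. With array weights per time 0 of the 26 were gained, and without the gene length trend 2. COX8, a subunit of cytochrome oxidase, had 11.46 and 12.21 at 10 h, against 11.52 and 11.61 at 2 h (1.09 ± 0.39, adjusted p = 0.0182).

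Of 26 proteasome subunit genes 0 were called and 10 were kept, with a median of 0.44. Of the 5628 genes 6.56% were gained, 10.4% lost and 41.8% kept, so that the kept share is near that of all genes. Of 18 genes of Myc and ribosome biogenesis 10 were kept (41.8% of the 5628 genes were), and Ns2 was gained (0.96, adjusted p = 0.029). Mnt, the repressor that opposes Myc, was lost, with 1.96 and 3.67 at 10 h, against 6.89 and 6.67 at 2 h (-3.15 ± 0.65, adjusted p = 1.5e-05). Mnt also differed between the media, by -2.30 ± 0.92 (adjusted p = 0.0415), a call that passed in 12 of 22 alternatives.

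Among regulators of RNA and of the nucleus there were lost and no gained genes. Of 14 nuclear pore, RNA export and decay genes 6 were lost and 0 gained, with a median of -0.67. Of the 5628 genes with a mean above 5, 10.4% were lost and 6.56% gained. The nucleoporin gene Nup98-96 had 6.50 and 7.16 at 10 h, against 9.09 and 8.96 at 2 h (-1.37 ± 0.32, adjusted p = 0.00208). Nup358 stood at -1.34, the exonuclease gene pcm (the fly Xrn1) at -1.14, and the deadenylase gene PAN3 at -1.32. After removal of the gene length trend 0 of the 14 were lost, and with 1 array left out 0 to 8 were.

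Of 6 bright genes in a list of immediate early and unstable mRNA regulators 3 were lost and 3 were kept, where 10.4% and 41.8% of the 5628 genes were. brat, a translational repressor, had 4.71 and 4.55 at 10 h, against 7.01 and 7.18 at 2 h (-1.65 ± 0.28, adjusted p = 0.00023). pum, the RNA-binding protein Pumilio, stood at -1.19, where another probe set with a mean of 6.38 gave -0.45, and CrebB stood at -1.47. Of 8 histone deacetylase and heterochromatin genes 2 were lost, HDAC6, a cytoplasmic deacetylase, with 2.59 and 3.39 at 10 h, against 5.98 and 5.84 at 2 h (-2.11 ± 0.36, adjusted p = 3.49e-05), and Su(var)3-7 (-1.47, 0.0014). HDAC6 also differed between the media (-2.45 ± 0.51, adjusted p = 0.00367), in 21 of 22 alternatives.

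Stress, signalling and metabolic lists held 0 to 3 called genes each, which is to be read against the 6.56% gained and 10.4% lost of the 5628 genes. Of 15 Toll and Imd pathway genes 0 were called and 9 were kept, and of 3 antimicrobial peptide genes 0 were called. Of 7 genes of the Hsp70 and Hsp90 system and 2 of small heat shock proteins 0 were called. Of 9 unfolded protein response genes the sensor kinases PEK (-1.10) and Ire1 (-0.98) and the chaperone gene Gp93 (-1.02) were lost. Of 8 ecdysone response genes 3 were lost: the nuclear receptor genes ftz-f1 (-2.41, adjusted p = 0.000109) and usp (-1.03) and the zinc finger gene br (-1.43).

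ftz-f1 had 4.99 and 3.80 at 10 h, against 7.73 and 7.51 at 2 h in UPD cells and a like relative difference of -2.33 in Mock cells (adjusted p = 0.0011), and the difference between the media was -0.08 (adjusted p = 0.954). Another probe set of it gave -0.81. Of 9 insulin, FoxO and nutrient response genes, InR (-0.89) and Pdk1 (-1.02) were lost and REPTOR-BP (1.31) was gained. Of 12 autophagy genes Atg2 (-1.34) and Atg1 (-0.91) were lost and Atg12 (1.22) was gained. Of 9 glycolysis genes Pfk (-1.26) and Hex-A (-0.83) were lost, Pglym78 (0.89) was gained, and 6 were kept. InR passed in 6 of 22 alternatives, Hex-A and Pglym78 in 7 each and Atg1 in 12. After removal of the gene length trend 0 genes of the insulin and glycolysis lists were called, 0 of the unfolded protein response and autophagy lists were lost, and 1 of the ecdysone list was.

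Of 17 cell cycle and replication genes 11 were kept and CycE alone was lost, where 41.8% and 10.4% of the 5628 genes were. After removal of the gene length trend 0 of the 17 were lost. sty, the Sprouty inhibitor of receptor kinases, was the only lost gene of 7 for EGFR and MAPK feedback (-1.41, adjusted p = 0.00202), and its other probe set, at a mean of 9.65, gave -0.04. The cell death gene Debcl (-0.99), the JNK pathway kinase gene slpr (-1.04) and the cytochrome P450 gene Cyp6a20 (-1.28) were the only lost genes of their lists, which hold 6, 10 and 15 genes. Cyp6a20 had a relative difference of -2.22 in Mock cells (adjusted p = 0.000108). Of 19 vacuolar ATPase and cathepsin genes and 5 G protein subunits 0 were called.

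Of 5 imaginal disc growth factor genes, secreted chitinase-like proteins, 0 were called in UPD cells. Idgf1 had 6.81 and 7.30 at 10 h, against 6.42 and 6.33 at 2 h, and in Mock cells -1.64 and 4.09 on the Mock 10 h arrays, against 6.41 and 6.51 on the Mock 2 h arrays. The difference between the media was 6.34 ± 2.15 (adjusted p = 0.00533, passed in 16 of 22 alternatives), and its size rests on the 2 widely spread arrays of Mock 10 h.

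**Figure D4:**
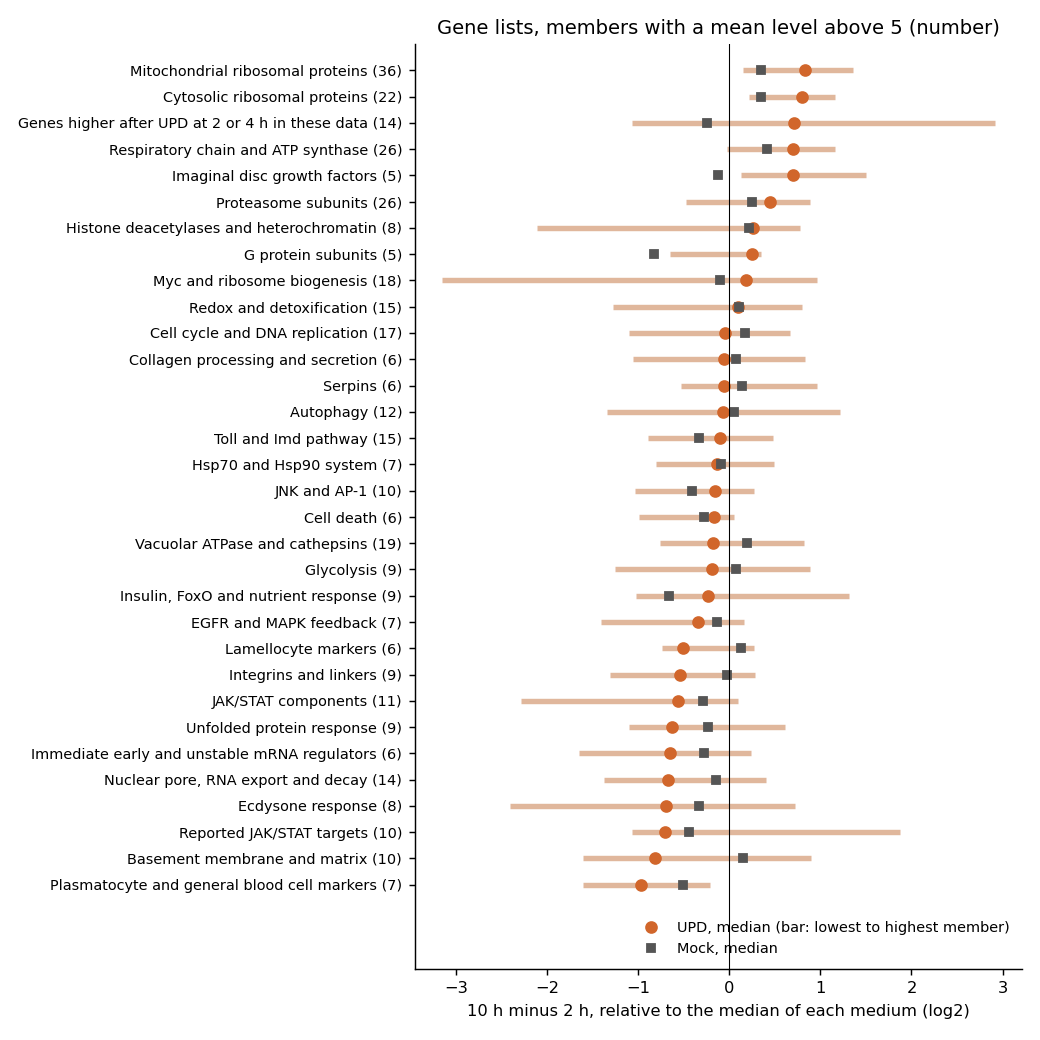
Relative difference, 10 h minus 2 h in log2 (x axis), for gene lists with at least 5 genes of mean level above 5 (number in brackets); orange points are UPD medians with bars from the lowest to the highest member, and grey squares are Mock medians. Mitochondrial ribosomal proteins have the highest UPD median, 0.83, and blood cell markers the lowest, -0.97.

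The late difference in UPD cells followed genomic gene length. Over 5615 genes with a mean above 5 and a length in the RefSeq table taken as 3 classes of equal number, the short class had a median relative difference of 0.49, the middle class of -0.09 and the long class of -0.52. Of the short class 17.2% were gained and 0.588% lost. Of the long class 0.962% were gained and 25.6% lost. The median lengths of these classes were 1251, 2616 and 7625 bases, and their median deposited levels at UPD 2 h were 8.70, 8.16 and 7.85.

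Spearman's rho between length and relative difference was -0.69 in UPD and -0.44 in Mock cells, across genes, which are not independent replicates. It was -0.68 with UPD 10 h replicate 1 alone and -0.67 with replicate 2 alone, and -0.63 after quantile normalization. In Mock cells the medians of the classes were 0.20, 0.02 and -0.22. Once a smooth trend with length was removed in place of the median, 395 brighter probe sets were called, 135 gained and 260 lost. The classes differed in level as well, and the part of level and of RNA quality in this relation was not tested.

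**Figure D5:**
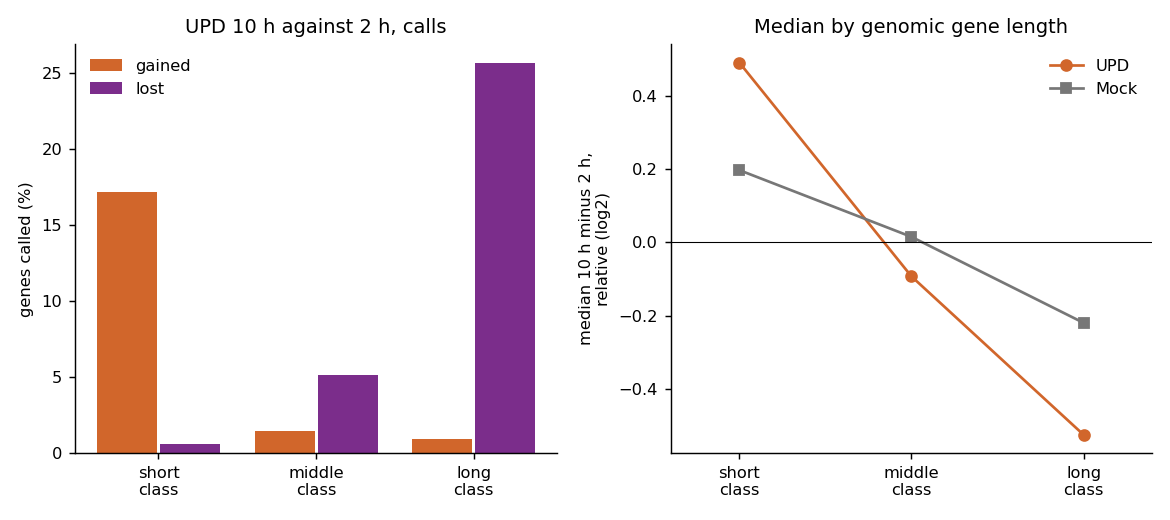
Left, percent of genes gained (orange) and lost (purple) at UPD 10 h against 2 h by class of genomic gene length (x axis); right, median relative difference in log2 of the same classes, UPD circles and Mock squares. Of the short class 17.2% were gained and of the long class 25.6% were lost.

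The relative difference also varied with level. Probe sets with a mean below 0 had a median relative difference of 1.84, those from 5 to 6 one of -0.46 and those above 10 one of 0.52. After quantile normalization these medians were 0.18, -0.07 and 0.02.

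The time difference was then set against that in Mock cells. Mock 10 h against 2 h gave 0 calls by limma over all 18769 probe sets (0%; 1775 or 9.46% had an unadjusted p under 0.05) and 119 over the brighter ones (1.77%), of which 1 was gained (0.0149%) and 118 were lost (1.75%). The 119 became 1234 when Mock 10 h replicate 2 was left out, 32 for its replicate 1, 15 for either UPD 10 h array, 67 for Mock 2 h replicate 2, 216 for either UPD 4 h array and 253 for either UPD 2 h array. The relative differences of UPD and Mock correlated across the 5628 genes at r = 0.36 and rho = 0.41, as a description. The test of the difference between the media gave 0 calls over all 18769 probe sets (0%; 1480 or 7.89% had an unadjusted p under 0.05) and 103 over the brighter ones (1.53%), 25 higher (0.371%) and 78 lower (1.16%) in UPD. The 103 became 915 when Mock 10 h replicate 2 was left out, 433 for its replicate 1, and 46 to 54 for UPD 10 h replicate 2 and for any array of 2 h. The split between the directions was not stable: 24.3% of the 103 were higher in UPD, against 68.7% of the 915, 45.2% of 889 after quantile normalization, 43.9% of 912 with each array set to its own median and 2.61% of 422 as deposited.

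Of the brighter genes higher in UPD, the 5 with the smallest p in the fit over all probe sets were CG4793, Sid, CG6357, CG32407 and CG11555. CG4793 rose by 1.82 in UPD cells and stood at -1.74 in Mock cells, a difference of 3.56 ± 0.44 (adjusted p = 1.08e-05). For Sid, which is among the brighter probe sets only through its UPD arrays, it was 3.42 ± 0.58 (adjusted p = 8.97e-05). For CG6357 it was 3.10 ± 0.49 (adjusted p = 0.000116). In all 3 genes both arrays of UPD 10 h lay above both of UPD 2 h, while both of Mock 10 h lay below both of Mock 2 h, as deposited. CG32407 had 5.97 and 5.99 on the UPD 10 h arrays, against 5.89 and 5.84 on the UPD 2 h arrays, and 4.54 and 5.55 on the Mock 10 h arrays, against 6.38 and 6.33 on the Mock 2 h arrays. CG11555 had 9.63 and 10.27 on the UPD 10 h arrays, against 9.83 and 9.91 on the UPD 2 h arrays, and 8.46 and 8.94 on the Mock 10 h arrays, against 9.96 and 9.83 on the Mock 2 h arrays.

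Of the brighter genes lower in UPD, the 5 with the smallest p in that fit were topi, sol, AdamTS-B, Top3alpha and tay. topi, a zinc finger gene known from spermatogenesis, had 2.19 and 2.77 on the UPD 10 h arrays, against 5.79 and 5.16 on the UPD 2 h arrays, and 5.84 and 5.77 on the Mock 10 h arrays, against 5.72 and 5.61 on the Mock 2 h arrays, a difference of -2.71 ± 0.51 (adjusted p = 0.00104). sol, which encodes a calpain-type protease, had 5.25 and 4.77 on the UPD 10 h arrays, against 8.0 and 7.94 on the UPD 2 h arrays, and 8.38 and 7.74 on the Mock 10 h arrays, against 8.10 and 8.02 on the Mock 2 h arrays, a difference of -2.54 ± 0.47 (adjusted p = 0.00158).

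AdamTS-B, a secreted metalloprotease gene, had 4.36 and 4.57 on the UPD 10 h arrays, against 7.01 and 7.0 on the UPD 2 h arrays, and 7.50 and 6.95 on the Mock 10 h arrays, against 7.06 and 7.02 on the Mock 2 h arrays, a difference of -2.31 ± 0.44 (adjusted p = 0.00367). Top3alpha, a DNA topoisomerase gene, had 5.72 and 5.80 on the UPD 10 h arrays, against 8.57 and 8.43 on the UPD 2 h arrays, and 8.54 and 8.03 on the Mock 10 h arrays, against 8.50 and 8.64 on the Mock 2 h arrays, a difference of -2.04 ± 0.42 (adjusted p = 0.00723). tay differed by -2.04 ± 0.42 (adjusted p = 0.00723). For HERC2, described above as lost, the difference between the media was -8.05 ± 1.68 (adjusted p = 1.08e-05). In topi, sol, AdamTS-B and Top3alpha both UPD 10 h arrays lay below all the others given.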

How the data were processed

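Levels were taken from the deposited table, which holds log2 values of 18952 probe sets on 12 arrays. Summarization tool, normalization and base of the logarithm were not given in the sources used here; log2 was inferred from the range of the values, -15.82 to 13.96. The number of arrays limits the precision, and p-values measure the spread between arrays that the labels call biological replicates. For each probe set limma pulled this spread towards the common spread of those tested. The standard error of HERC2 was thus 1.18 in the fit over all probe sets and 0.67 in that over the brighter ones. The 183 control probe sets were left out. Genes were named from the platform annotation in GEO, with symbols brought up to date by gene ID in a RefSeq table of assembly Release 6, which also gave genomic lengths. A single gene was listed for 13647 probe sets, several for 402 and none for 4720, and 13544 of the 13647 were matched.

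limma 3.58.1 in R 4.3.3 was fitted to the 12 arrays with 6 group means, after the median difference had been subtracted from the 10 h arrays of each medium. P-values were two-sided, adjusted by the Benjamini-Hochberg method, with a threshold of 0.05. The procedure was run on simulated data with independent noise, equal in all groups, and with no shift between the arrays of a group. The arrays here differ from that, so the run does not show how the procedure fares on them. A gene was represented by its probe set with the highest mean. Of 654 symbols in 40 lists, 643 matched and 487 were measured. The members and lists were chosen with earlier results of these data known.

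Named genes were the 15 largest changes per direction past the threshold with a mean above 5 and no overlap (where under 10 passed, those with the smallest p up to 10), all measured members of the JAK/STAT component, JAK/STAT target and early UPD lists, up to 4 brighter members of each other list with the smallest p, 5 genes per direction for the difference between media and the 5 brightest kept genes; others are said to be chosen after their values were seen. Alternatives were quantile normalization, no removal of the median, another probe set choice for the median, the restriction to brighter probe sets, a variance trend with robust moderation, array weights, a minimum change of 1.2-fold, the arrays of 2 and 10 h alone, the replicate number as a block, removal of a gene length trend and leaving out each array. Centring each array on the median of its own brighter probe sets, and most alternatives on the brighter probe sets, were chosen after seeing the data.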

Additional observations from a re-analysis of the deposited data

Results flagged for a closer look

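By limma's test of the difference between the media, adjusted over the 6731 brighter probe sets, 103 of these (1.53%) passed. Among the 187 named genes 27 passed. The 10 genes given here are the 5 per direction with the smallest p in the fit over all probe sets. The time difference was higher in UPD for CG4793 (3.56, adjusted p = 1.08e-05), Sid (3.42, 8.97e-05), CG6357 (3.10, 0.000116), CG32407 (1.85, 0.0271) and CG11555 (1.69, 0.0361). It was lower in UPD for topi (-2.71, 0.00104), sol (-2.54, 0.00158), AdamTS-B (-2.31, 0.00367), tay (-2.04, 0.00723) and Top3alpha (-2.04, 0.00723). Over all 18769 probe sets 0 genes passed, with 1480 at an unadjusted p under 0.05. Sid, at a mean of 5.04, lay just above the limit of the brighter probe sets, and it passed that limit only through its UPD arrays. Of the 22 alternatives on the brighter probe sets, CG4793 passed in 22, CG6357, Sid, tay, sol, topi and AdamTS-B in 21 each, Top3alpha in 19, CG32407 in 12 and CG11555 in 7.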

How the results depend on the processing

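The 56 calls of UPD 10 h against 2 h became 471 after quantile normalization, 1776 as deposited, 1274 under robust moderation with a variance trend, 10 with array weights, 37 without the gene length trend, 774 with each array at its own median and 0 in a fit of the UPD 2 h and 10 h arrays only, where 2944 had an unadjusted p under 0.05. They became 1149 among the brighter probe sets alone and 186 with array weights there, and 0 to 165 with 1 array left out, where the lone array of its group is assumed to vary like the other groups. The 1149 calls among the brighter probe sets became 2572, 3832 and 186 with quantile normalization, the deposited scale and array weights, 476 with a minimum change of 1.2-fold, 395 without the gene length trend, 2770 with each array at its own median, and 282 to 2273 with 1 array left out. All 1149 kept their sign in each of these settings except 2: 1132 did without the gene length trend and 1148 without UPD 10 h replicate 2. The signs on the deposited scale are no separate check, since they follow from the calls and the removed median.

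The 0 Mock calls became 77 with a variance trend, 119 among the brighter probe sets, and 0 to 38 with 1 array left out. The 119 became 1233 as deposited, 310 with a variance trend, 0 with array weights and with the arrays of 2 and 10 h alone, 36 with a minimum change, 41 without the gene length trend, 18 with each array at its own median, and 15 to 1234 with 1 array left out. The 0 calls between the media became 12 after quantile normalization, 38 with a variance trend, 1 with each array at its own median, 103 among the brighter probe sets, 2 with array weights there, and 0 to 6 with 1 array left out. The 103 became 889, 422, 223 and 2 with quantile normalization, the deposited scale, a variance trend and array weights, 41 with a minimum change, 60 without the gene length trend, 912 with each array at its own median, and 46 to 915 with 1 array left out. The cause was not tested beyond what each setting changes.

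The labels do not say that a replicate number marks a shared day or batch. Deviations of same-numbered arrays correlated at 0.02 between UPD 10 h and 2 h, at 0.25 between Mock 10 h and 2 h, and at -0.46 to 0.59 over the 15 pairs of groups; with 2 numbers this does not settle whether they pair the Mock arrays. With the replicate block there were 47 calls for UPD (31 gained, 16 lost) and 1117 among the brighter probe sets, 0 and 322 for Mock, and 0 and 215 between the media (40.9% of the 215 higher in UPD). A match of promoter sequences to Stat92E sites was planned and not run.

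The limits are 2 arrays a group, an unstated normalization, values without a floor for dim probe sets, and a late shift of the brighter probe sets in both media. Relative differences describe shares of the expressed transcripts, not amounts per cell.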
